A study of Homo sapiens with 6 samples.

Results

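END-seq peaks were followed along 2 stretches of the human genome (hg19) in which peaks were dense: the distal long arm of chromosome 10 from 100 Mb to its end (10q block) and the distal long arm of chromosome 16 from 80 Mb to its end (16q block). Members were all peaks that start in these stretches, and the blocks were chosen by their peak density in these same lists, so the density itself is described here without a test. The 10q block held 83359 peaks and the 16q block 24342, together 107701 of the 4267178 peaks in the 8 lists (2.52%). The rest of chromosome 10 held 139106 peaks and the rest of chromosome 16 held 102580. The name "raised density" applied to 10q only as far as a step at position 131370000, and on 16q the raised stretch began before the 80 Mb limit, inside the gene WWOX.

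The cells were HCT116, an established human colorectal carcinoma line, in 2 biological replicates per group: no drug (Ctrl), cells exposed to 10 µM camptothecin (CPT) for 10 min (CPT10) and cells exposed to it for 20 min (CPT20). The sample labels write the second treatment as 20 µM, whereas the protocol and design texts state 10 µM for both times, and that reading is used. Mouse pre-B cells were added to each sample as a spike-in. Each of the 4 treated libraries had 1 forward and 1 reverse peak list, and the Ctrl libraries served as input in the authors' peak calling, so no background measured in the same way is given. The lists held 286491 to 826744 peaks, and the expected fragment height, a relative measure of depth, lay between 0.727 and 1.44 fragments. CPT10 replicate 1 stood apart, since its reverse list (826744 peaks, lowest summit 5 fragments) was much longer than its forward list (591881 peaks, lowest summit 6 fragments). Where 4 values follow each other below, they belong to CPT10 replicate 1, CPT10 replicate 2, CPT20 replicate 1 and CPT20 replicate 2, in this order. All 4 libraries came from 1 cell line. Copy number was not measured, so more copies of a region and more breaks per copy cannot be told apart in any density below.

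CPT holds DNA topoisomerase I on DNA after it has nicked a strand. A replication fork or a repair enzyme that meets such a trapped complex can turn the nick into a double-strand break (DSB). END-seq ligates an adapter to free DNA ends in agarose-embedded cells and reads outwards from each of them. Where both ends of a break are recovered, a reverse-strand peak lies to its left and a forward-strand peak to its right, and where only 1 end is free the peak is on 1 strand. HCT116 is a near-diploid line with a few known chromosomal gains and rearrangements, long-arm material of chromosomes 10 and 16 among them.

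Paired DSB sites, in which a reverse peak was overlapped or followed within 150 bp by a forward peak, were merged into clusters when both replicates of a time held them. For the 2 leading persistent clusters of 10q, the sequence where the paired peaks overlap is shown. Each run is 200 bases of the plus strand (GRCh37, 5′ to 3′) around the middle of the stretch that the reverse and the forward peak of the best pair share, and capitals mark that shared stretch.
VTI1A, persistent, chr10:114296747-114296946: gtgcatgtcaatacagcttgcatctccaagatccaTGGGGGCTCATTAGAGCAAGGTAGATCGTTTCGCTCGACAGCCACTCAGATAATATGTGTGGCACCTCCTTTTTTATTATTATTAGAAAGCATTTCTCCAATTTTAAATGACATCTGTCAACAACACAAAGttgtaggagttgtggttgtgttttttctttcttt
PPRC1, persistent, chr10:103894560-103894759: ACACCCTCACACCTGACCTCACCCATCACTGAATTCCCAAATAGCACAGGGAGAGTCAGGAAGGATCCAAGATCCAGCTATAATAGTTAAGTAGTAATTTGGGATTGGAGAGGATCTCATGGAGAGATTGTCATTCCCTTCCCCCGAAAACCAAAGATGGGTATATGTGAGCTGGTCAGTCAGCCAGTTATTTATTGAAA
The midpoints of both clusters lay in introns. The reverse and forward peaks overlapped in each pair, by 131 bases at VTI1A and 209 at PPRC1, so a pair does not place a break at a base. Whether both peaks of a pair came from the same break was not tested. GC content was 39% at VTI1A and 44.5% at PPRC1.

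Peak density was higher in both blocks than in the rest of the same chromosome in all 4 libraries. The 10q block had 752, 586, 661 and 368 peaks per Mb of sequence without N, and the rest of chromosome 10 had 483, 359, 414 and 192. The ratio of block to rest was 1.68 ± 0.165 (SD, n = 4 libraries), and it was lowest in CPT10 replicate 1 (1.56) and highest in CPT20 replicate 2 (1.92). The 16q block had 752, 545, 735 and 344 peaks per Mb, and the rest of chromosome 16 had 505, 348, 451 and 190. The ratio was 1.62 ± 0.135 (SD, n = 4). Across libraries the values of block and rest overlapped, since the libraries differ in depth, and within each library the block was higher.

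The ratio held on either strand. Over the 8 lists it ran from 1.504 (CPT10 replicate 1, reverse) to 1.92 (CPT20 replicate 2, reverse) on chromosome 10. On chromosome 16 it ran from 1.41 (CPT10 replicate 1, reverse) to 1.96 (CPT20 replicate 2, forward), and the forward ratio exceeded the reverse ratio in all 4 libraries.

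**Figure D1:**
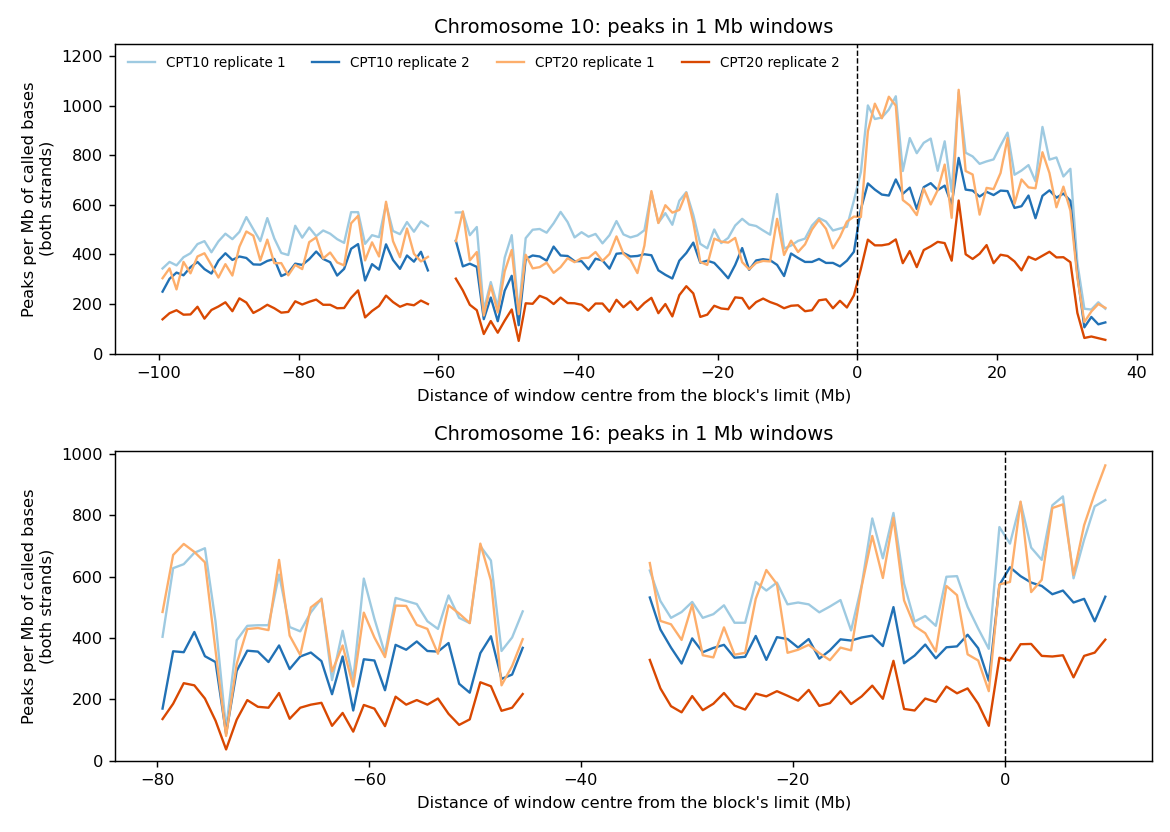
Peaks per Mb of sequence without N (y axis, forward and reverse peaks summed) in 1 Mb windows along chromosomes 10 and 16, against the distance of the window centre from the limit of the block (x axis, Mb, dashed line at 0), with 1 line per library and gaps where assembly gaps leave no window. On chromosome 10 the lines rise past the limit and fall steeply about 31 Mb beyond it, and on chromosome 16 they rise just before the limit.

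In 1 Mb windows the 10q block was a plateau with a gradual start and a sharp distal end. The window counts below are descriptions of the density that chose the block. Of its 36 windows with at least 0.5 Mb of sequence, 31 had a higher mean density over the 4 libraries than any of the 97 windows of the rest of chromosome 10, of which the highest had 495 peaks per Mb. These 31 windows run from 100 to 131 Mb without a break, and the next window, which holds the step, had 289. The window from 114 to 115 Mb was the highest, with 882 ± 217 peaks per Mb (SD, n = 4), rank 2 of 2846 windows of chromosomes 1 to 22 and X. It holds VTI1A, which encodes a SNARE protein of Golgi and endosome transport, and TCF7L2, a transcription factor of Wnt signalling. The windows from 105 Mb (801 peaks per Mb) and 104 Mb (776) came next and held 18 and 19 protein-coding gene starts. The 3 lowest windows were those from 132 Mb (119), 135 Mb (137) and 133 Mb (141), which ranked 2812, 2795 and 2784.

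The 16q block was flatter. Its 10 windows lay between 497 and 686 peaks per Mb, all above the median of the 69 remaining windows of the chromosome (367), and 5 of them lay above the highest of these (607). The windows from 89 Mb (686), 81 Mb (668) and 85 Mb (649) were highest and those from 86 Mb (497), 83 Mb (539) and 82 Mb (552) lowest. All 10 windows, and 31 of 36 on 10q, were in the upper 10% of windows of the genome, and the genome median was 369 peaks per Mb.

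The limits of the rule were then compared with the steps in the data. At 100 Mb on chromosome 10, the window just outside (99 to 100 Mb) had 454 ± 170 peaks per Mb and the window just inside 552 ± 161 (SD, n = 4), and the next one reached 762. The ratio across the limit was 1.26 ± 0.215, with 0.996 in CPT20 replicate 1 and 1.46 in CPT20 replicate 2. The planned fit of 1 step to the whole long arm did not find this limit, since it was at 52 Mb for all lists together. A fit restricted to 10 Mb on each side of the limit, chosen after seeing the data, was at 100 Mb, inside R3HCC1L. Fitted per list it fell between 99.6 and 101.4 Mb (median 100.3), so the start of the 10q block was spread over nearly 2 windows. This interval contains HPSE2, a long gene for a heparanase-related protein on the minus strand (chr10:100216834-100995619), in which the 4 libraries had 73.4, 60.4, 52.8 and 35.1 peaks per 100 kb.

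The distal end of the 10q plateau was sharp. A fit in 100 kb bins, restricted to positions from 120 Mb after seeing the data, was at 131.4 Mb in each of the 8 lists. Bins of 10 kb of all lists together placed the step at 131370000, with single lists between 131340000 and 131380000. The planned fit of 2 steps to the whole long arm gave 46.3 and 49.4 Mb for all lists together. It found 131.4 Mb in both lists of CPT10 replicate 2 and CPT20 replicate 2 and in the reverse list of CPT20 replicate 1. The 100 kb before this position held 211 peaks over the 8 lists and the 100 kb after it 50, a ratio of 0.237. The step lies inside MGMT (chr10:131265454-131569247, plus strand), which encodes the methyltransferase that removes alkyl groups from guanine. Within the gene the libraries had 64.1, 67.9, 53.6 and 26.8 peaks per 100 kb before the step and 22.1, 12.0, 14.6 and 6.02 after it. The fall was present in every library and on each strand list.

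Beyond this step the last 4.05 Mb of sequence on 10q held 2207 peaks, and it was poorer than the rest of chromosome 10 and not richer. Its density was 189, 125, 167 and 63.4 peaks per Mb. This was 0.368 ± 0.0349 of the rest of chromosome 10 and 0.202 ± 0.0355 of the plateau (SD, n = 4). It has 50.3% GC and 8.63 protein-coding gene starts per Mb, against 42.6% and 6.74 on the plateau, so it was not poor in genes. Taken only up to the step, the block had 1.85 ± 0.191 times the density of the rest of chromosome 10.

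On chromosome 16 the windows on each side of the 80 Mb limit were alike, with 562 ± 175 peaks per Mb outside and 562 ± 165 inside, a ratio of 1.00 ± 0.0733 (SD, n = 4). The fitted step was at 78.9 Mb for all lists together. It lay between 78.8 and 79.2 Mb in 7 lists and at 81.2 Mb in the reverse list of CPT20 replicate 2. The stretch from the step to 80 Mb already had 1.53 ± 0.215 times the density of the rest of the chromosome. WWOX, an oxidoreductase gene that spans the common fragile site FRA16D, covers this step on the plus strand (chr16:78133297-79246564).

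Density changed several times along WWOX, and the limits of its low stretch were placed after seeing the data. Before the stretch the 4 libraries had 47.4, 40.3, 30.8 and 14.2 peaks per 100 kb. In the low stretch of 470 kb (chr16:78260001-78730000) they had 20.9, 13.2, 11.1 and 5.32, which was 0.303 ± 0.0740 (SD, n = 4) of the 10 Mb before it. From the stretch to the step they had 45.9, 33.5, 29.4 and 12.9, and after the step 71.0, 47.9, 53.1 and 31.2. In all 4 libraries the stretch was lowest, the part after the step highest and the 2 other parts lay between and close to each other. The strands also changed along the gene. The forward share was 5.56% to 33.3% before the low stretch and 27.4% to 32.0% in it. It was 46.2% to 72.7% from there to the step and 50.8% to 63.0% after the step. These shares rest on few peaks, with 18 to 60 per library before the stretch and 25 to 98 in it. From there to the step it was 22 to 78 peaks, and after the step 108 to 246. The 5.56% was 1 forward peak of 18 in CPT20 replicate 2.

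**Figure D2:**
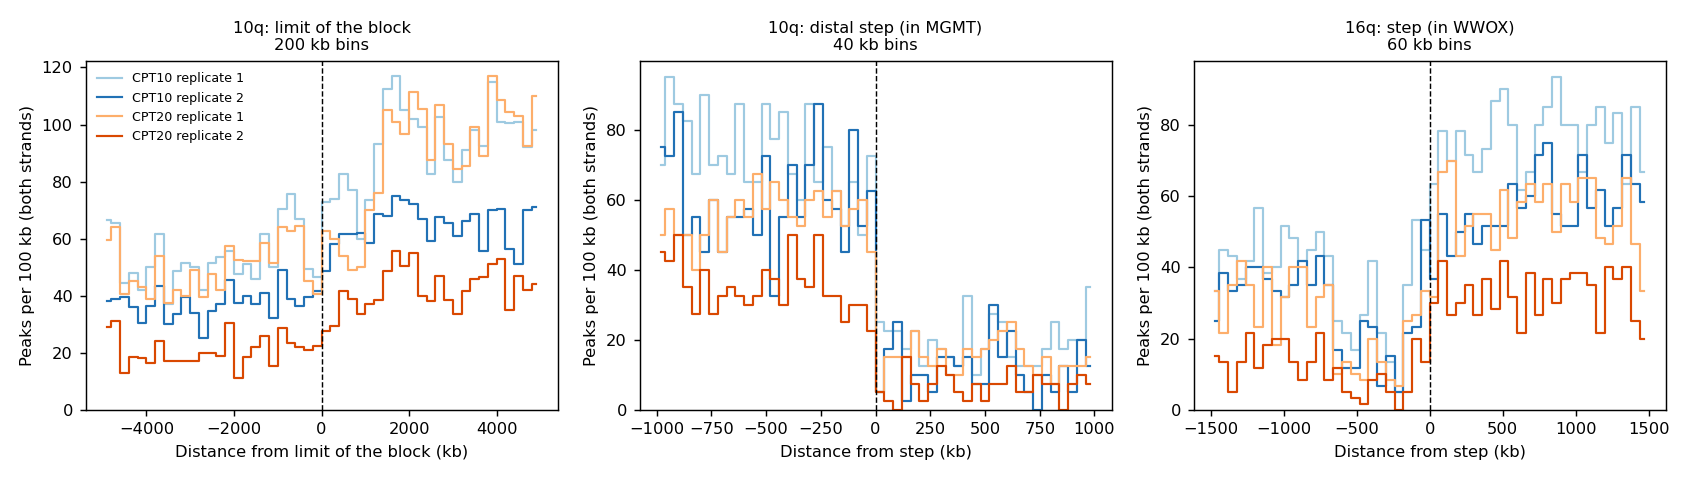
Peaks per 100 kb (y axis, both strands) against the distance from the 10q limit at 100 Mb (left, 200 kb bins), from the distal step in MGMT (middle, 40 kb bins) and from the step in WWOX (right, 60 kb bins), in kb on the x axis, with 1 line per library. The distal 10q step is a fall within 1 bin in each library, the WWOX step follows a low stretch of 470 kb, and the proximal 10q rise is spread over more than 1 Mb.

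The blocks differed from the rest of their chromosomes in the height of the peaks as well as in their number. Heights come from the same fragments that chose the blocks and are therefore given as a description. On 10q the share of peaks whose summit was at least 3 fragments above the lowest summit of its list was 74.7%, 51.9%, 71.0% and 59.3%. In the rest of chromosome 10 it was 65.8%, 42.1%, 62.3% and 48.6%, and the difference was 9.55 ± 0.966 percentage points (SD, n = 4). On 16q the shares were 73.6%, 49.6%, 71.5% and 57.7% against 67.3%, 41.8%, 64.3% and 48.9%, a difference of 7.49 ± 1.00 points. All 4 libraries differed in the same direction on both chromosomes.

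The ratio of block to rest grew with the height of the peaks considered. Among peaks at the lowest summit height of their list it was 1.11 ± 0.109 on chromosome 10 and 1.15 ± 0.0466 on chromosome 16. Among peaks 3 to 5 fragments higher it was 1.75 ± 0.273 and 1.70 ± 0.250, and among peaks more than 10 fragments higher 2.67 ± 0.437 and 2.15 ± 0.224 (SD, n = 4 for each). The tallest single peaks were elsewhere, with at most 197 fragments on 10q and 61 on 16q, against 2196 in the rest of chromosome 10 and 3306 in the rest of chromosome 16. Since the height needed for a call is the same along a list, the ratio of peak numbers depends on the threshold, and it is not a ratio of break numbers.

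**Figure D3:**
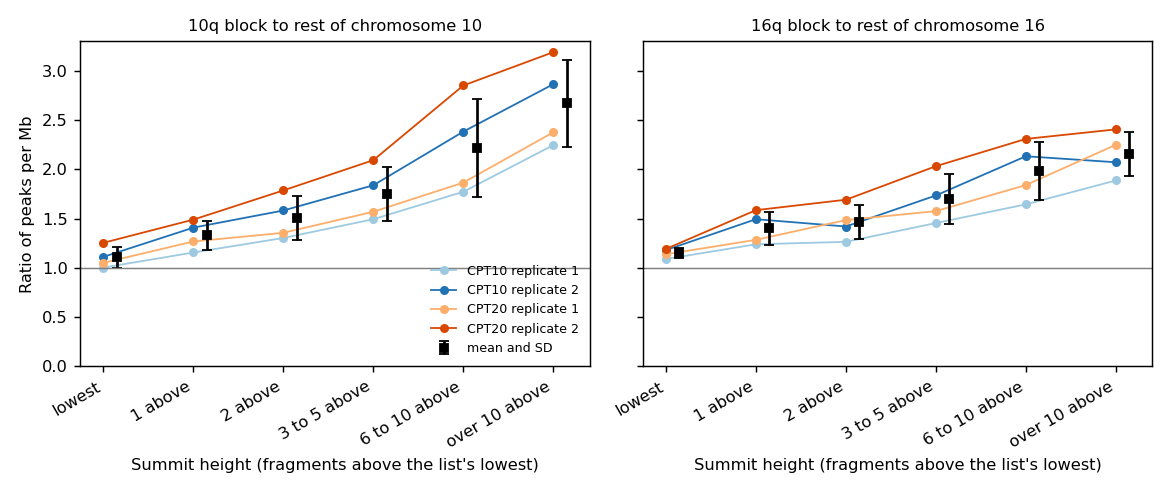
Ratio of peaks per Mb in the block to peaks per Mb in the rest of the chromosome (y axis, grey line at 1) for peaks grouped by summit height in fragments above the lowest summit of their list (x axis), for 10q (left) and 16q (right). Coloured points are the 4 libraries and black squares with bars their mean and SD, and the mean rises from 1.11 to 2.67 on chromosome 10 and from 1.15 to 2.15 on chromosome 16.

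Whether the excess over the rest of the chromosome changed between 10 and 20 min was tested over libraries, since the blocks were chosen with both times pooled. On the log2 scale the ratio of block to rest on chromosome 10 was 0.64 and 0.71 in the CPT10 replicates and 0.68 and 0.94 in the CPT20 replicates. The difference, CPT20 minus CPT10, was 0.14 (two-sided exact permutation p = 0.667). On chromosome 16 the values were 0.58 and 0.65 at 10 min and 0.70 and 0.85 at 20 min, with a difference of 0.17 (two-sided exact permutation p = 0.333). The times did not overlap on chromosome 16 and did on chromosome 10, and with 2 libraries per time no p below 0.333 is possible. The list of CPT20 replicate 2 was the shortest, and with all lists limited to the length of the smallest the difference turned to -0.028 on chromosome 10 and fell to 0.052 on chromosome 16, where the times then overlapped (exact permutation p = 0.667).

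Within the blocks the change with time was then described by window. The share of a block's peaks that fell in a window was compared between CPT20 and CPT10 for same-numbered replicates. On 10q it was higher at 20 min in both replicates in 9 of 36 windows and lower in both in 12. The replicates correlated weakly across these windows (r = 0.04). How many windows would share a sign by chance was not computed, so the windows named below are descriptions. The window of VTI1A and TCF7L2 had the largest gain, 0.20 and 0.32 on the log2 scale in replicates 1 and 2, followed by the windows from 104 Mb (0.26 and 0.14) and 102 Mb (0.28 and 0.07). The windows from 107, 108 and 132 Mb, with 0, 1 and 0 protein-coding gene starts, had the values -0.35 and -0.02, -0.35 and -0.07, and -0.32 and -0.08. On 16q the windows from 89 Mb (0.21 and 0.23) and 88 Mb (0.10 and 0.30) gained in both replicates and the window from 80 Mb lost (-0.25 and -0.28).

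The number of protein-coding gene starts in a window ran with the mean of this change over the replicates. Spearman's rho between the mean change and the gene count was 0.59 over the 36 windows of 10q and 0.90 over the 10 windows of 16q, and Pearson's r was 0.54 and 0.89. With GC content rho was 0.23 on 10q and 0.84 on 16q. These are descriptions over neighbouring windows of the same 4 libraries, and the rest of the chromosomes was not examined in this way. The relation is not given for each replicate alone, and the replicates could differ. In the 10q windows from 102, 104, 105, 124 and 135 Mb, with 18 to 20 gene starts, replicate 1 had 0.28, 0.26, 0.13, 0.005 and 0.22. In the same windows replicate 2 had 0.07, 0.14, 0.06, -0.04 and -0.52. Whether the 10q relation is present in replicate 2 was not tested. Between the replicates the change of a window correlated weakly on 10q (r = 0.04, n = 36) and more on 16q (r = 0.48, n = 10). The parts of gene count and GC content were not tested.

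**Figure D4:**
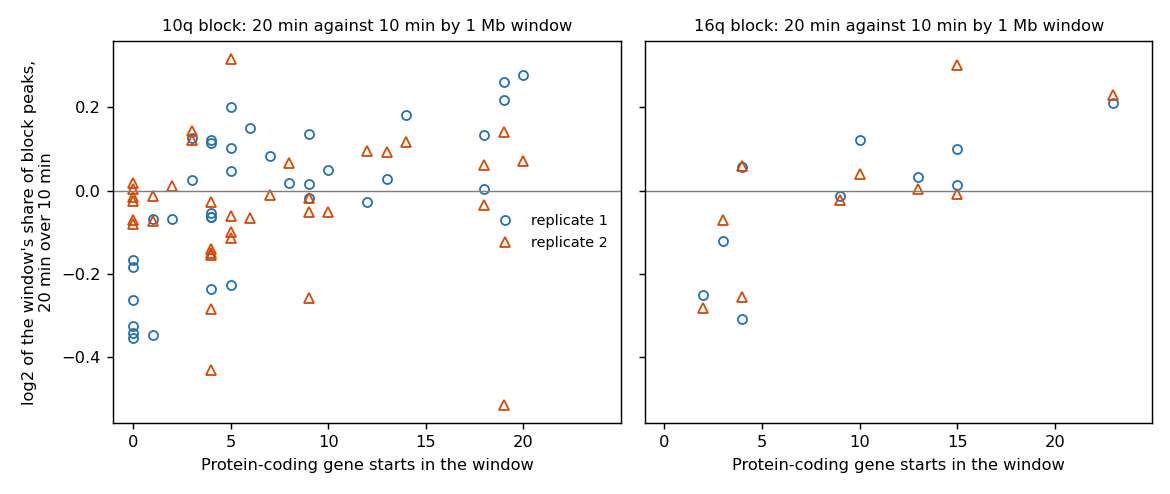
Change of the share of the block's peaks in each 1 Mb window from 10 to 20 min (y axis, log2 of the share in CPT20 over the share in CPT10, circles for replicate 1 and triangles for replicate 2) against the number of protein-coding gene starts in the window (x axis), for 10q (left) and 16q (right). The 8 windows of 10q with no gene start or 1 lie below 0 in replicate 1 and between -0.08 and 0.02 in replicate 2. On 16q the windows from 88 and 89 Mb, with 15 and 23 gene starts, lie above 0 in both replicates.

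The strand of the peaks was not used to choose the blocks. Over the whole 10q block the forward share was 43.4%, 50.1%, 49.3% and 50.2%, against 41.4%, 50.02%, 50.2% and 50.3% in the rest of chromosome 10. The difference was 0.27 ± 1.21 percentage points (SD, n = 4 libraries, exact two-sided sign-flip permutation p = 0.875), positive in 2 libraries and negative in 2. On 16q the forward share was 45.2%, 53.6%, 51.8% and 53.9% against 42.1%, 49.4%, 49.7% and 49.6%. Here the difference was 3.45 ± 1.01 points, positive in all 4 libraries (exact two-sided sign-flip permutation p = 0.125, the smallest that 4 libraries allow).

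A single long gene of the 16q block was also looked at by strand. CDH13, which encodes a cadherin without a cytoplasmic tail, has its body over 1174 kb of the 10.2 Mb of the block. It held 8.43% to 11.9% of the peaks of the block, so its share was not large for its length. With 5 kb on each side it had 0.524 peaks per kb, below the median of the 16q genes (0.681). Its forward share was 52.2%, 62.5%, 60.2% and 67.8% in the 4 libraries. Without CDH13 the difference from the rest of chromosome 16 was 2.32 ± 0.698 points and again positive in 4 of 4 libraries (exact two-sided sign-flip permutation p = 0.125). On 16q the forward share was 54.6% ± 3.99 in plus-strand genes, 50.02% ± 4.18 in minus-strand genes and 48.0% ± 4.02 outside protein-coding genes (SD, n = 4). In the rest of chromosome 16 it was 49.0% ± 3.51 in plus-strand and 45.4% ± 3.26 in minus-strand genes, and in the rest of chromosome 10 it was 50.6% ± 4.44 and 48.0% ± 5.16, so plus-strand genes were higher there too, in 4 of 4 libraries on each. On 10q the same shares were 47.3% ± 2.40, 48.8% ± 3.56 and 48.6% ± 3.79. By library they were 43.84%, 48.0%, 49.5% and 47.8% in plus-strand genes and 43.75%, 51.2%, 48.7% and 51.4% in minus-strand genes. Plus-strand genes were thus slightly higher in replicate 1 and lower in replicate 2 at both times.

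At the scale of 1 Mb the forward share varied along both blocks, and most windows, though not all, leaned the same way in the 4 libraries. Each window's forward share was set against the share of its library over chromosomes 1 to 22 and X. In 11 windows of 10q all 4 libraries lay above their own share, in 14 all 4 lay below it, and 11 were mixed. On 16q the counts were 6, 2 and 2. One-sided windows made up 69.4% on 10q, 8 of 10 on 16q, 72.2% and 65.2% in the rest of chromosomes 10 and 16, and 64.9% over 2846 windows of the genome.

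The window from 106 Mb on 10q was the most reverse-rich, with a forward share of 28.6%, 29.1%, 32.4% and 23.3%. It holds most of SORCS3, a sorting receptor gene. With 5 kb on each side of it, reverse peaks outnumbered forward peaks in every library, with 297, 299, 224 and 145 reverse and 136, 124, 121 and 50 forward peaks. Only 5 Mb further on, the window from 111 Mb was forward-rich, at 56.4%, 69.5%, 65.9% and 83.6%. The windows from 120 Mb (51.6%, 62.8%, 58.3% and 73.9%) and 121 Mb (38.5%, 38.4%, 41.7% and 32.0%) were neighbours with opposite lean. The window from 133 Mb, in the poor distal end, was the most forward-rich of 10q with 57.5%, 71.4%, 75.8% and 75.8%. On 16q the window from 82 Mb had 30.2%, 38.7%, 37.5% and 31.0% and the next one, from 83 Mb, 59.2%, 70.7%, 68.1% and 78.1%.

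**Figure D5:**
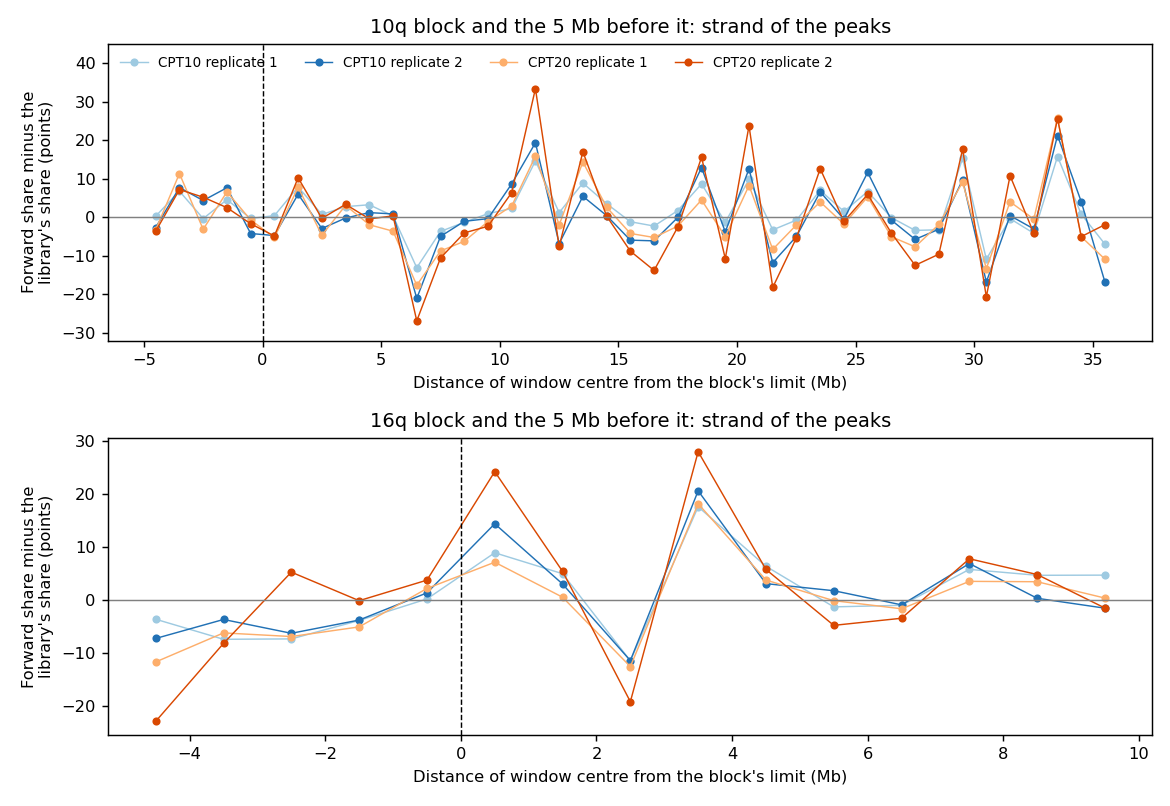
Forward share of the peaks in each 1 Mb window minus the forward share of the same library over all chromosomes (y axis, percentage points, grey line at 0) against the distance of the window centre from the limit of the block (x axis, Mb, dashed line), with 1 line per library, for 10q (top) and 16q (bottom). The 4 lines swing together, and the window means run from -19.7 to 22.1 points on 10q and from -13.7 to 21.0 on 16q.

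Across windows the forward shares of any 2 libraries ran together, with Pearson's r of 0.89 to 0.93 over the 36 windows of 10q and 0.91 to 0.97 over the 10 windows of 16q. The points share their windows and libraries, and r is given as a description. The spread of the shares between windows was then compared with the rest of the chromosomes. The SD of the window shares, averaged over libraries, was 9.34 points on 10q against 7.76 in the rest of chromosome 10, a difference of 1.57 ± 0.802 (n = 4, exact two-sided sign-flip permutation p = 0.125). On 16q it was 9.43 against 7.82, a difference of 1.61 ± 1.14 (p = 0.125 in the same exact test), and both differences were positive in 4 of 4 libraries.

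Pairs of peaks were examined next, since a break with 2 recovered ends gives a reverse peak followed by a forward peak, while chance neighbours come in either order. Among neighbouring peaks of opposite strand that did not overlap and lay less than 150 bp apart, the 10q block held 773, 482, 651 and 166 in the order of a break and 773, 450, 597 and 177 in the other order. The ratios were 1.00 (0.905 to 1.10, from the Wilson interval of the share at 95%), 1.07 (0.942 to 1.22), 1.09 (0.976 to 1.22) and 0.938 (0.759 to 1.159). On 16q it was 0.951, 1.39, 1.10 and 0.975, and only in CPT10 replicate 2 did the interval (1.05 to 1.84) leave out 1. The log2 ratio in the block minus that in the rest was -0.05 ± 0.226 on chromosome 10 (exact two-sided sign-flip permutation p = 0.75) and -0.0028 ± 0.275 on chromosome 16 (p = 1 in the same exact test). Apart from CPT10 replicate 2 on 16q, each interval of the blocks included 1. An excess of the break order was thus not detectable among such neighbours in those libraries at this depth. Overlapping peaks, as in both pairs whose sequences are printed above, were left out of these ratios, so the ratios do not cover them. The paired sites below may include pairs that stand side by side by density alone.

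Paired sites were more frequent in the blocks, as a description of the same peaks. On 10q there were 3104, 1764, 2683 and 704 sites, and the ratio of block to rest per Mb was 2.84, 3.02, 3.01 and 3.64. The product of the forward and reverse peak ratios was 2.45, 2.66, 2.55 and 3.69, below the site ratio in 3 of 4 libraries. Independent placement of the strands would give this product only at even density and equal peak width. Density was uneven within the 10q block. Its median peak width was 220, 196, 240 and 214 bp, against 199, 182, 216 and 195 bp in the rest. The products are therefore descriptions, and independence of the strands was not tested. On 16q there were 854, 413, 930 and 180 sites, with ratios of 2.12, 2.28, 2.48 and 2.58 and products of 2.26, 2.44, 2.65 and 3.24, above the site ratio in 4 of 4. On 10q, 6.89%, 12.3%, 4.55% and 17.0% of the sites were matched by an overlapping one in the other library of the same time, against 2.81%, 5.59%, 2.96% and 15.0% in the rest of the chromosome. On 16q the shares were 3.98%, 8.23%, 3.98% and 21.1% against 4.40%, 10.2%, 3.90% and 24.4%.

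Sites found in both replicates of a time were merged into clusters, called persistent when found at both times, transient at 10 min only and late at 20 min only. The 10q block held 292 clusters, 23 persistent, 181 transient and 88 late, and the rest of chromosome 10 held 125, of which 21 were persistent, 59 transient and 45 late. Per Mb these were 8.29 and 1.301. All 292 lay before the distal step, at 9.37 per Mb, and none in the 4.05 Mb beyond it. The 16q block held 58 clusters, 6 persistent, 24 transient and 28 late, or 5.66 per Mb, against 160 or 2.33 per Mb in the rest of chromosome 16. The rest of chromosome 16 had 34 persistent, 73 transient and 53 late clusters, and chromosomes 1 to 22 and X had 931, 2958 and 1899. Transient clusters were thus the largest class on 10q, as over the genome, and late clusters on 16q, by 28 to 24.

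The clusters of the blocks lay mostly in genes. On 10q, 233 of 292 (79.8%, 95% Wilson interval 74.8 to 84.0) had their midpoint in an annotated gene and 75 (25.7%, 21.0 to 31.0) no more than 5 kb from a protein-coding 5′ end, against 72.8% (64.4 to 79.8) and 28.8% (21.6 to 37.3) in the rest of chromosome 10. The intervals of block and rest overlapped for both shares and cover counting error only. Among the 23 persistent clusters of 10q, 14 (60.9%, 40.8 to 77.8) were near a 5′ end, against 4 of 21 (19.0%, 7.67 to 40.001) in the rest. The persistent clusters of 16q were near a 5′ end in 6 of 6 cases and those of the rest of chromosome 16 in 14 of 34 (41.2%, 26.4 to 57.8). The sets compared differ, since 22 of 23 persistent clusters of 10q and 6 of 6 of 16q lay in an annotated gene. In the rest this held for 10 of 21 on chromosome 10 (47.6%) and 18 of 34 on chromosome 16 (52.9%). Clusters beside large assembly gaps were not left out of the rest. Near 5′ ends lay 15.5% of the transient clusters of 10q (10.9 to 21.4) and 37.5% of the late ones (28.1 to 47.9).

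TCF7L2 and VTI1A held more clusters than any other gene of the 10q block. TCF7L2 held 18 clusters and VTI1A 16, together 34 of 292 (11.6%) and 7 of the 23 persistent ones. These counts were noticed after the clusters had been made. In the body of TCF7L2 (chr10:114710006-114927437, plus strand) the libraries had 122, 100, 125 and 79.1 peaks per 100 kb, and in that of VTI1A (chr10:114206756-114578503, plus strand) 100, 81.0, 101 and 61.9. The forward share was 41.9% to 46.1% in TCF7L2 and 48.5% to 54.4% in VTI1A.

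The leading persistent cluster of 10q was in an intron of VTI1A (chr10:114294721-114297740), 89475 bp from its 5′ end. The smaller −log10 q of the paired peaks was 25.7, 7.44, 17.4 and 7.70. The next was at the 5′ end of PPRC1 (chr10:103891976-103895313), a coactivator of mitochondrial biogenesis, with 19.6, 13.2, 12.9 and 18.5. The others were in the first part of TCF7L2 (chr10:114714110-114716868, 5483 bp from the 5′ end), over DUSP5 (chr10:112257845-112261913), a phosphatase that acts on ERK, and at a second place in VTI1A (chr10:114285448-114290823). DUSP5 had 12.1 and 8.48 in the CPT10 replicates and 25.2 and 24.2 in the CPT20 replicates. Depth differs between libraries, so these values rank sites within a library only.

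The leading transient clusters of 10q were at NOLC1, TIAL1 and EIF3A. The class belongs to the cluster and not to the gene. Each of these genes also held a late cluster elsewhere in its body, in NOLC1 for example at chr10:103914025-103914919. EIF3A had a persistent cluster in its body or within 5 kb of it. NOLC1 encodes a nucleolar protein and its cluster lay in an exon 263 bp from the 5′ end (chr10:103912059-103912333), with a −log10 q of 19.6 and 9.51 in the CPT10 replicates and no site in either CPT20 replicate. TIAL1 encodes an RNA-binding protein of stress granules, and its cluster lay near the 3′ end of the gene (chr10:121331334-121332476). EIF3A encodes a subunit of the translation initiation factor eIF3 (chr10:120835481-120837497). Its site was also present in CPT20 replicate 1, at 10.8, and missing only in CPT20 replicate 2. The leading late cluster was in ABRAXAS2, a subunit of a deubiquitinase complex (chr10:126491065-126493048), with 19.8 and 8.69 in the CPT20 replicates and none at 10 min. The other late clusters named were at 2 places in introns of MCMBP, a partner of the MCM replication helicase (chr10:121624199-121624844 and chr10:121627522-121628965), and each had a site in 1 of the CPT10 replicates too.

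On 16q the leading persistent cluster covered RPL13, a ribosomal protein gene (chr16:89626327-89632957), with 19.8, 11.9, 18.8 and 10.9. It was followed by MAP1LC3B, an autophagy protein (chr16:87426604-87429089, 18.4, 5.50, 16.4 and 7.70), and USP10, a deubiquitinase (chr16:84733746-84735535, 12.9, 7.44, 11.8 and 4.93). CDT1, which licenses replication origins (chr16:88872528-88875389), had 20.8, 2.93, 13.1 and 6.70. SLC7A5, an amino acid transporter (chr16:87899196-87901454), had 5.46, 6.402, 8.76 and 9.78. The late clusters named were in CDK10, a cyclin-dependent kinase gene, in CPNE7, which encodes a copine, and at the 5′ end of MBTPS1, a protease of the Golgi. Of these only MBTPS1 (chr16:84149134-84150818) had no site in either CPT10 replicate. The transient clusters named were in ZFPM1, CDH13 and the non-coding gene HSD17B2-AS1. ZFPM1, a cofactor of GATA factors, had 12.1 and 3.75 in the CPT10 replicates and also a site in CPT20 replicate 1, at 29.2. ZFPM1 and EIF3A were thus transient by the absence of a site in CPT20 replicate 2, the library with the shortest lists.

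Over the genes as a whole, 87 of the 245 protein-coding genes with a start in the 10q block (35.5%) had a cluster replicated at 10 min within 5 kb of the body, 69 (28.2%) one replicated at 20 min and 22 (8.98%) a persistent one. On 16q the counts were 25 of 102 (24.5%), 33 (32.4%) and 10 (9.80%). Over the 20098 protein-coding genes of chromosomes 1 to 22 and X the shares were 11.5% at 10 min, 11.0% at 20 min, 3.81% for persistent clusters and 16.9% for clusters replicated at either time. In the rest of chromosome 10 they were 10.5%, 9.86% and 2.62%, and in the rest of chromosome 16 11.5%, 12.5% and 3.69%. Clusters are built from the peaks whose density chose the blocks, so nothing is read from these higher shares.

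Genes of lists drawn up by function were then compared within the blocks by peaks per kb of the gene with 5 kb on each side, as the mean of 4 libraries. Over all 347 protein-coding genes of the blocks the median was 0.705 peaks per kb, 151 genes (43.5%) had a cluster replicated at either time and 32 (9.22%) a persistent one. The counts of the lists below stand beside these shares and were not tested. Of the 13 genes for replication and repair, 7 had a replicated cluster, 2 of them persistent, and the median was 0.951 per kb. CDT1 was densest with 1.49 ± 0.321 (SD, n = 4), from 29, 20, 25 and 18 peaks. NOLC1, a nucleolar protein gene placed in this list, had 1.41 ± 0.468, CENPN, a kinetochore protein gene, 0.998 ± 0.20, SMC3, a cohesin subunit, 0.951 ± 0.203, NSMCE4A, a subunit of the SMC5/6 complex, 0.951 ± 0.346, and FANCA, of the Fanconi anaemia core complex, 0.867 ± 0.356. MGMT, crossed by the distal step, had 0.269 ± 0.0982 and no cluster.

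Of the 12 genes for translation, RNA and mitochondria in the blocks, 8 had a replicated cluster, 4 of them persistent, with a median of 0.965 per kb. TIAL1 had 1.24 ± 0.304, RPL13 1.10 ± 0.330, PRDX3, a mitochondrial peroxiredoxin, 1.09 ± 0.235, SMNDC1, a splicing factor, 1.08 ± 0.0852, EIF3A 1.06 ± 0.255 and GSTO1, a glutathione transferase, 0.968 ± 0.222. Of the 17 genes of Wnt, growth and stress signalling, 12 had a replicated cluster, 4 of them persistent, with a median of 0.843. TCF7L2 had 1.07 ± 0.231, NFKB2, a subunit of NF-κB, 1.06 ± 0.315, CDK10 1.05 ± 0.348, CHUK, the kinase IKKα, 0.984 ± 0.303, TRIM8, a ubiquitin ligase, 0.968 ± 0.391 and MAP1LC3B 0.941 ± 0.170. FGFR2, a growth factor receptor, had 0.503 ± 0.138 and no cluster.

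Of the 17 developmental and tissue-restricted genes, 4 had a replicated cluster and none a persistent one, with a median of 0.537 per kb, the lowest of the 5 lists. The 4 were TUBB3, a neuronal tubulin, with 0.923 ± 0.348, MC1R, the melanocortin receptor, with 0.716 ± 0.374, HMX2, a homeobox gene, with 0.658 ± 0.120, and CDH13 with 0.524 ± 0.132. MC1R and TUBB3 are neighbours, and their flanks share peaks. EMX2, a homeobox gene of the forebrain, had 12, 10, 8 and 5 peaks and 0.512 ± 0.175 per kb, and FOXF1, a forkhead gene, 0.537 ± 0.315. All 9 very long genes had a replicated cluster, none of them persistent, and a median of 0.629 per kb. CTBP2, a corepressor, was highest at 0.689 ± 0.211 and DOCK1, an exchange factor for Rac, lowest at 0.464 ± 0.118. Longer genes offer more room for a cluster, so the counts of long and short genes are not comparable. CDH13 stands in 2 lists. MGMT, FGFR2, EMX2, FOXF1 and DOCK1 were named after their values were seen.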

How the data were processed

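END-seq libraries of HCT116 cells were described by 8 deposited peak lists. Per the study's methods, reads were trimmed with Trim Galore 0.6.5, aligned to hg19 with Bowtie2 2.5.0, filtered at a mapping quality of at least 30 with duplicates kept (SAMtools 1.16.1), split by strand, and peaks were called by the authors per library and strand with MACS2 2.2.7.1 against a control library, at a q-value threshold of 0.05 and without local background. A rise of background along a chromosome is therefore not removed from these lists. Spike-in scaling came after calling. The deposited score is derived from the q-value, the deposited fold enrichment is a linear ratio of summit to expected height, and 2 further deposited columns hold the −log10 p-value and the −log10 q-value. From the fold values whole-number summit heights were recovered, with 100% of values on the grid in each list. Read totals were not used, so the expected height stands for depth.

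The blocks, gene lists and tests were chosen with earlier results of these data known. Densities were counted per Mb without N in the GRCh37 reference, with GENCODE release 44 mapped to it. Sites were paired with bedtools 2.31.1 after the rule in the study (150 bp). Its blacklist and read-count filter were not applied. Replicated sites overlapped by at least 1 bp. Clusters named were the 5 persistent, 3 late and 3 transient ones per block whose lowest standing by −log10 q, among the libraries of the class, was best. Named genes were the list members with a replicated cluster, up to 6 per list by peaks per kb. Tests were exact permutation tests over libraries. Shares have 95% Wilson intervals. PCR duplicates were kept, so intervals cover counting error only. Peak heights were planned with a test and are given without one. Steps were least-squares fits to log2 counts. Calculations used numpy 2.4.6, pandas 2.3.3 and scipy 1.17.1, and the step fit was tested on simulated data. Alternatives were stricter thresholds, equal list lengths, other regions, pairing distances and gene sets, and each library left out. Some sequences are not reported here.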

Additional observations from a re-analysis of the deposited data

Results flagged for a closer look

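On chromosome 10 the forward share in the block minus that in the rest was positive in both CPT10 replicates, with a mean of 1.03 percentage points, and negative in both CPT20 replicates, with a mean of -0.49 points. The 2 times thus lay on opposite sides of 0, and the difference between them was not tested. The CPT10 mean rests on replicate 1 (1.98 points), the library whose strand lists differ in length, while replicate 2 had 0.08.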

How the results depend on the processing

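Of 123 values under other settings, 85 stayed on the same side or within the spread, 26 moved and 12 changed sign. The log2 ratio of block to rest, 0.74 on chromosome 10 and 0.69 on chromosome 16, rose to 0.95 and 0.86 at a −log10 q of at least 3, to 1.42 and 1.08 at 10, and to 0.99 and 0.89 with lists of equal length. On chromosome 10 it was 0.91 in bases covered and 0.88 up to the distal step. The time difference on chromosome 10 reversed to -0.028 with equal lists, that on chromosome 16 fell from 0.17 to 0.052, and with 1 library left out it lay between 0.00 and 0.27 (0.09 and 0.24 on chromosome 16). With the replicate block the paired time difference was 0.14 on chromosome 10 and 0.17 on chromosome 16 (exact sign-flip p = 0.5 for both, the smallest that 2 pairs allow). The forward share difference on chromosome 10 was -0.081 at a −log10 q of 3, -1.54 at 10, and between -0.30 and 0.65 with 1 library left out (-0.30 without CPT10 replicate 1). The order ratio difference changed sign between settings. On chromosome 10 it was 0.085 under 75 bp, 0.051 under 300 bp, 0.016 with overlapping neighbours and -0.13 to 0.055 with 1 library left out. On chromosome 16 it was 0.12 under 75 bp, 0.038 with overlapping neighbours and -0.12 to 0.086 with 1 library left out. The height difference was 5.01 and 4.24 points at 1 fragment and 8.23 and 6.05 at 6 fragments above the lowest (chromosomes 10 and 16). The planned fit of 1 step to the whole long arm of chromosome 10 gave 52 Mb and the fit within 10 Mb of the limit, chosen after seeing the data, gave 100 Mb. On chromosome 16 bins of 50 kb gave 90.2 Mb in place of 78.9 Mb. Persistent clusters fell from 23 to 14 and 1 on 10q at a −log10 q of 3 and 10 and to 13 with overlapping peaks only, and from 6 to 1 (at 10) and 3 on 16q. Clusters near 5′ ends on 10q, 25.7%, were 35.2% at 3, 13.4% within 2 kb, 34.9% within 10 kb and 32.5% with all genes, and on 16q, 39.7%, they were 53.6%, 24.1% within 2 kb and 53.4% with all genes. The causes were not tested. Clusters need both replicates, so leaving out a library gives no count. Without CDH13 and for the block between the fitted steps, both chosen after seeing the data, the forward share kept its sign.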
